A study of Mus musculus with 8 samples.

Results

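A set of 8 genes that mark the surface epithelium of the stomach, Ctse, Vsig1, Anxa10, Cldn18, Lgals4, Sytl2, Aqp5 and Krt20, are described here in mouse pancreatic cancer cells grown with or without an antibody against sonic hedgehog (SHH). They were found by symbol among the 39179 genes of the deposited count table, 1 row each, and all 8 passed the filter on low counts, as did 13626 genes in all. They had been picked with the difference between these same libraries in view. The values of the 8 genes, with their standard errors and intervals, are therefore a description, and no p is given for them.

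The gastric surface is covered by mucous cells that secrete the mucin MUC5AC and trefoil peptides and that protect the stomach wall from acid. In the pancreas, precancerous lesions can switch on genes of this gastric program, which normal pancreas largely lacks. Lgals4 and Krt20 are also well known from the intestine, and Aqp5 from glands such as the salivary gland, so the 8 genes do not mark 1 cell type alone.

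Of the 8 libraries, 4 came from cells treated with 20 µg/mL of an SHH-neutralizing antibody and 4 from cells given none, and no control antibody is named for the second arm. In both arms the cells were epithelial cancer cells of a mixed FVB/B6 background, and the labelled genotype, the same in all 8 libraries, includes p48Cre, ROSA_rtTAL+ and p53L+. The Cre is thus driven by a pancreatic promoter (p48 is PTF1A), rtTA is a tetracycline-controlled transactivator, and doxycycline is not mentioned. The green-labelled cancer cells shared their cultures with red-labelled pancreatic stellate cells for 72 h in 0.5% dialyzed serum, were sorted by colour, and only the green cells gave RNA. The labels count 4 biological samples in an arm, but not how many clones or mice the cell line stands for.

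Total counts were 14953255 to 15733280 in the antibody libraries and 10009711 to 14602784 in those without, so every antibody library was the deeper one. A count of 3 equals 0.191 to 0.30 CPM (the count over the TMM-adjusted library total), which covers counting error only. Replicate 1 without antibody stood apart from its arm: the chi-square of its counts, per degree of freedom, was 9.26 to 11.2 against the other 3. Among these, replicates 2 and 3 gave 1.79, while replicate 4 gave 4.61 against replicate 2 and 3.93 against replicate 3. Pairs of antibody libraries gave 1.72 to 3.7. Mitochondrial genes took 6.48% of the counts of replicate 1 without antibody, against 4.1% to 5.02% in the other 7 libraries. Counts of Shh were 7, 13, 16 and 8 with antibody and 5, 0, 7 and 0 without, a level below the filter, and the antibody acts on the protein, so they check no label.

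Start sites of 6 of the 8 genes could be read from RefSeq windows (GRCm38.p6, the same build as the files), giving 7 windows because Cldn18 has a pair of start sites. The 250 bases before the start are shown for Anxa10 (chr8:62123194-62123443, minus strand) and Vsig1 (chrX:140907358-140907607, plus strand), with the highest ratios between the arms, and for Krt20 (chr11:99438154-99438403, minus strand), with the lowest. Each runs 5′ to 3′ on the strand of the gene. Capitals mark matches, on either strand, to the letters of 4 kinds of element. The AP-1 letters were TGANTCA and those of the TATA box were TATAAA. For the GATA family of factors both AGATAA and a second form, TGATAA, were searched. The TEAD family was represented by GGAATG.
Anxa10: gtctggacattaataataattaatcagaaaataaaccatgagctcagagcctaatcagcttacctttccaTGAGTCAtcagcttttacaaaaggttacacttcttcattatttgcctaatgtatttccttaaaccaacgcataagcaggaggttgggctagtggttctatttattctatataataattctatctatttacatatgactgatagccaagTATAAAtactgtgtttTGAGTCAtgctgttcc
Vsig1: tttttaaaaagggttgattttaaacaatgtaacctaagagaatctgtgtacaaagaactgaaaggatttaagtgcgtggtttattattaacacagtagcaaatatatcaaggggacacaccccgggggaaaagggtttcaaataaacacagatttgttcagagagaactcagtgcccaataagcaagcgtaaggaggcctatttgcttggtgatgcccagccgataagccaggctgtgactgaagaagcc
Krt20: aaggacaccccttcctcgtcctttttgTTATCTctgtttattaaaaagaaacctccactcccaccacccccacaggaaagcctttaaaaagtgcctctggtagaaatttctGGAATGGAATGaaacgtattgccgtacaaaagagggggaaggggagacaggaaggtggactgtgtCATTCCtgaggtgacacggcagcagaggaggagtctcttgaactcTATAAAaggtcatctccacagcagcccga

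The Anxa10 window was poor in G and C (33.6%) and held TGANTCA at 180 and 16 bases before the start and TATAAA at 32 bases. Krt20 (48.0% G and C) held TATAAA at 29 bases, AGATAA on the opposite strand at 223 bases and GGAATG at 139, 134 and 74 bases, the last on the opposite strand. The Vsig1 window (41.2% G and C) held none of these letters. Of 32851 such windows of all genes, 6.75% held TGANTCA, 12.4% TATAAA, 9.99% AGATAA, 7.94% TGATAA and 12.6% GGAATG, and the median G and C content was 52.4%.

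Among the other windows G and C content was 53.6% for Lgals4 and 52.0% and 54.0% for the start sites of Cldn18, while Aqp5 reached 78.4%, above most windows (percentile 98.3). GACCACCCA, the letters bound by the GLI factors of the hedgehog pathway, occurred in 0 of the 7 windows and in 0.225% of all. CCACCC, bound by Krüppel-like factors and contained in the GLI letters, occurred in 3 of 7, at Krt20 and at both starts of Cldn18, and in 28.1% of all. CANNTG, the E-box, occurred in 5 of 7 and in 66.2% of all. A match of letters is no evidence of binding, and its absence from 250 bases says nothing of the factor.

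Per unit of gene length the 8 genes ranged from abundant to scarce. The authors' RPKM values, which divide counts by gene length and library total, put Lgals4 first, at 469.7 ± 18.7 RPKM with antibody and 419.1 ± 18.8 RPKM without (SD, n = 4 each), rank 81 of the 13626 genes tested over all libraries. Sytl2 was last, at 2.28 ± 0.083 RPKM with antibody and 1.74 ± 0.199 RPKM without, percentile 18.4. The other 6 genes lay between percentiles 82.7 and 95.6.

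The order of the middle genes differed between the arms. With antibody, Krt20 (90.8 ± 2.87 RPKM) was followed by Anxa10 (79.7 ± 3.53), Cldn18 (73.5 ± 0.306), Vsig1 (43.6 ± 2.27), Ctse (40.7 ± 0.702) and Aqp5 (30.9 ± 0.971). Without antibody, Krt20 (89.4 ± 5.55 RPKM) was followed by Cldn18 (71.1 ± 3.67), Anxa10 (53.4 ± 3.16), Vsig1 (32.8 ± 1.71), Ctse (31.2 ± 2.07) and Aqp5 (29.8 ± 2.19). Anxa10 thus lay above Cldn18 in every antibody library and below it in every library without. Vsig1, Ctse and Aqp5 overlapped in RPKM without antibody, while with antibody the ranges of neighbouring genes in the order did not overlap.

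**Figure D1:**
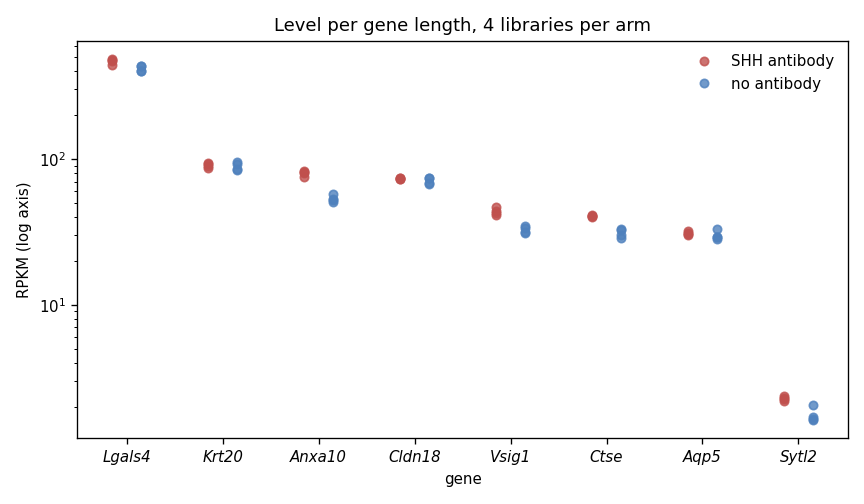
Level of the 8 marker genes in RPKM on a log axis, each point 1 library, with antibody at the left of each pair and without at the right (4 libraries per arm). Lgals4 lies far above the others at 443.4 to 487.7 RPKM with antibody, Sytl2 far below them at 2.18 to 2.38 RPKM, and Anxa10 and Cldn18 change places between the arms.

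Between the arms, Anxa10, Vsig1, Ctse and Sytl2 were 1.29 to 1.48 times as high with antibody, Lgals4 was 1.11 times as high, and Cldn18, Aqp5 and Krt20 lay within 1.01 to 1.03 times. The arms did not overlap for the first 5 genes, all higher with antibody, where 7.71% of the 13626 genes tested were higher without overlap, 6.56% lower and 14.3% either. That count is set by how the genes were picked, and nothing is read from it. In bulk RNA, more cells that carry a transcript and more transcript per cell cannot be told apart.

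**Figure D2:**
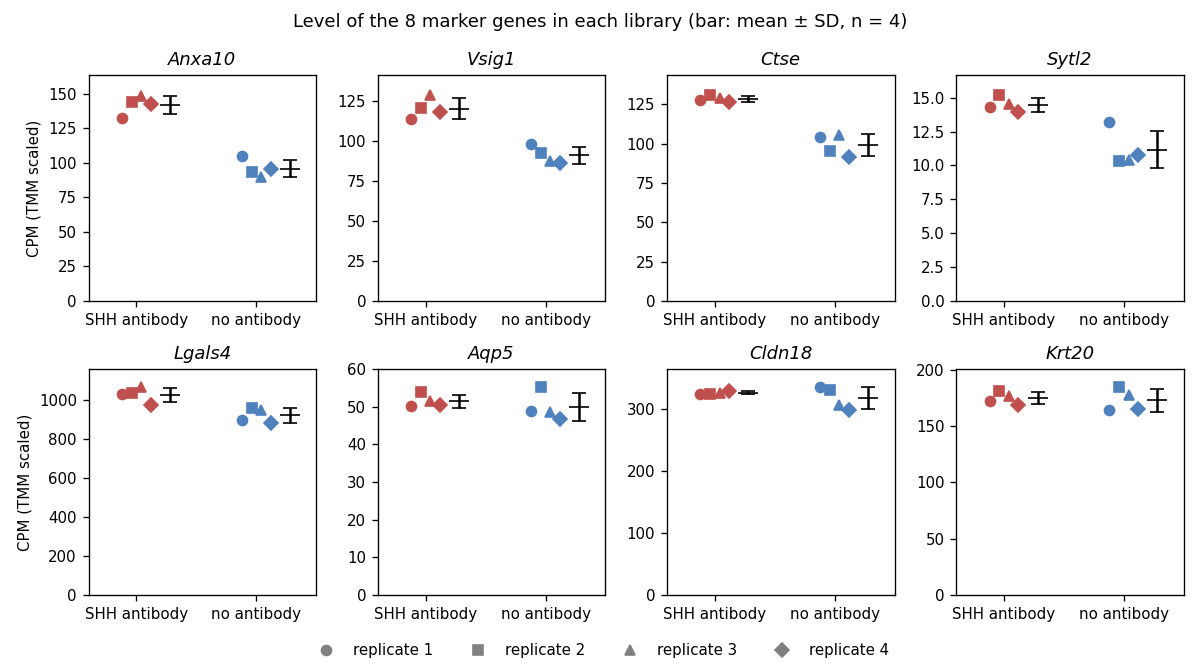
CPM of each marker gene in each library, with antibody at the left and without at the right. Symbols are replicate numbers, for which no pairing between arms was seen. Black bars are the mean ± SD of 4 libraries. The arms stand clear of each other for Anxa10, Vsig1, Ctse, Sytl2 and, narrowly, Lgals4, and overlap for Aqp5, Cldn18 and Krt20.

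Among the genes of the membrane and of adhesion, Anxa10 differed most. It encodes annexin A10, a member of the family of proteins that bind phospholipid membranes, which is made chiefly in the stomach (ENSMUSG00000031635, chromosome 8, 62057042 to 62123118, GRCm38). Anxa10 stood at 132.5, 144.1, 148.3 and 142.6 CPM with antibody and at 104.6, 93.5, 89.7 and 95.2 CPM without. The lowest antibody library was 26.7% above the highest library without, which was replicate 1. The log2 fold change, antibody over none, was 0.57 ± 0.05 (SE; 95% interval 0.45 to 0.68), and it ranged from 0.54 to 0.61 when each library was left out in turn.

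Vsig1 encodes an immunoglobulin-domain protein of the junctions of gastric epithelium (ENSMUSG00000031430, chromosome X, 140907608 to 140939472). It stood at 113.8, 121.0, 129.0 and 118.1 CPM with antibody and at 98.0, 92.7, 87.5 and 86.4 CPM without. As for Anxa10, replicate 3 was the highest antibody library, replicate 1 the lowest, and replicate 1 the highest without antibody. Its log2 fold change was 0.40 ± 0.05 (SE; 0.37 to 0.44 over the fits without 1 library).

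Cldn18 encodes claudin 18, a tight junction protein with a lung form and a stomach form that begin at different first exons (ENSMUSG00000032473, chromosome 9, 99689461 to 99717267). Counts per gene do not tell these forms apart. Cldn18 stood at 324.3, 325.3, 326.9 and 330.1 CPM with antibody and at 335.9, 331.3, 306.2 and 299.4 CPM without. The antibody libraries lay within the range of the others, with a log2 fold change of 0.04 ± 0.05 (SE; 95% interval -0.06 to 0.14). An antisense gene that overlaps Cldn18, Gm16004, had 0 counts in every library.

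Among the enzymes and secretory genes, Ctse encodes cathepsin E, an aspartic protease of endosomes that is abundant in gastric surface cells (ENSMUSG00000004552, chromosome 1, 131638306 to 131675503). It stood at 127.9, 131.2, 129.0 and 126.4 CPM with antibody and at 104.3, 95.7, 105.5 and 91.3 CPM without. The antibody libraries lay close together, and the lowest of them was 19.8% above the highest without. The log2 fold change was 0.38 ± 0.05 (SE; 0.33 to 0.40 over the fits without 1 library).

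Sytl2 encodes a synaptotagmin-like protein, also named Slp2-a, that binds the small GTPases RAB27A and RAB27B on secretory granules and is known in mouse from the mucus granules of gastric surface cells (ENSMUSG00000030616, chromosome 7, 90348699 to 90410438). It had 222, 239, 221 and 208 counts with antibody, or 14.3, 15.2, 14.5 and 14.0 CPM. Without antibody it had 169, 103, 111 and 157 counts, or 13.2, 10.3, 10.4 and 10.8 CPM. The gap between the arms was 6.0%, set by replicate 1 without antibody. The log2 fold change was 0.37 ± 0.09 (SE), and 0.46 without that replicate.

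Lgals4 encodes galectin 4, a lectin that binds galactosides on glycolipids and glycoproteins of the gut (ENSMUSG00000053964, chromosome 7, 28833975 to 28841703). It stood at 1030, 1035, 1065 and 974.1 CPM with antibody and at 896.3, 958.8, 949.1 and 880.0 CPM without. The lowest antibody library lay 1.6% above the highest without. The log2 fold change was 0.16 ± 0.05 (SE; 95% interval 0.05 to 0.26), and 0.10 without replicates 1 and 4 of the arm without antibody. Lgals4 took 50.6% to 53.5% of the summed CPM of the 8 genes in each library. Its near-identical neighbour in some mouse strains, Lgals6, was not analysed here, so reads of such a copy could sit in the value of Lgals4.

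Aqp5 encodes a water channel of secretory epithelia (ENSMUSG00000044217, chromosome 15, 99590849 to 99594829). It stood at 50.2, 53.8, 51.5 and 50.4 CPM with antibody and at 48.9, 55.2, 48.7 and 46.8 CPM without. The highest and the lowest library were both without antibody, and the log2 fold change was 0.05 ± 0.06 (SE; 95% interval -0.07 to 0.17).

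Krt20 encodes a keratin of the intermediate filaments of gastric and intestinal surface cells (ENSMUSG00000035775, chromosome 11, 99428403 to 99438150). It stood at 171.9, 181.2, 176.4 and 168.9 CPM with antibody and at 163.9, 184.9, 178.0 and 165.3 CPM without. The log2 fold change was 0.02 ± 0.05 (SE; 95% interval -0.09 to 0.12), and -0.06 without replicates 1 and 4 of the arm without antibody. Within the arm without antibody, Aqp5 and Krt20 were both highest in replicate 2, the replicate in which Sytl2 was lowest.

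Averaged over the 8 genes, the log2 CPM centred on each gene's mean was 0.09, 0.16, 0.15 and 0.09 with antibody and -0.06, -0.10, -0.14 and -0.19 without. By the size of the root mean square difference from this mean profile over the 8 libraries, Lgals4 was the closest of the 8 to it (0.07 log2 units) and Anxa10 the farthest (0.17). The tested genes of at least 1 CPM outside the 8 with the smallest such difference were Neurl3 (0.032), Cldn2 (0.032), Golm1 (0.035), Cdk2 (0.035) and Plekha7 (0.036). Golm1, a Golgi membrane protein, had the highest level per length of these, at 131.0 ± 3.09 RPKM with antibody and 107.2 ± 2.43 RPKM without (SD, n = 4 each). The step between the arms, for which the 8 genes were picked, is part of this likeness.

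Other genes of gastric surface and mucous cells were then read from the same fit. Of 27 such genes, all listed in the count table, 19 were tested; 8 rose with antibody, 1 fell and 10 did not pass (quasi-likelihood test of edgeR, p adjusted over all 13626 genes, threshold 0.05). The median log2 fold change of the 19 was 0.39, where that of all genes tested was -0.0044. Of all genes tested, 4.53% were called higher with antibody, 3.87% lower and 8.4% in either direction. Without replicates 1 and 4 of the arm without antibody the list again gave 8 higher and 1 lower, with a median of 0.31, while calls over all genes went up to 2263 of 13914, against 1144 of 13626. That fit keeps only replicates 2 and 3 of that arm, its most alike pair. This list was drawn up when the rise of Tff1 and Fut2, both counted among those that rose, was already known. Tff2, also counted, passed the filter on low counts only through the antibody libraries. The list is no independent evidence of a direction.

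The secreted products of the surface mucous cell were among the genes that rose. Muc5ac, the main gel-forming mucin of the gastric surface, stood at 21.1, 29.9, 25.6 and 24.1 CPM with antibody and at 16.8, 16.7, 14.1 and 12.2 CPM without. The arms did not overlap, with a log2 fold change of 0.76 ± 0.11 SE (edgeR adjusted p = 6.68e-05). Tff1, a trefoil peptide secreted with this mucin, had 88.4 to 99.9 CPM in antibody libraries and 50.5 to 54.2 CPM in those without. Both arms of Tff1 were tight, and its log2 fold change was 0.88 ± 0.05 SE. The rise of Tff1 was known when the list was drawn up, so no p is given for it.

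Gastrokines, secreted proteins of the same cells, were scarce. Gkn1 had 3.86 ± 0.512 CPM in antibody libraries and 2.83 ± 0.251 CPM in those without (SD, n = 4 each), and its log2 fold change of 0.46 ± 0.16 SE did not pass (edgeR adjusted p = 0.0943). Gkn1 was called higher in 2 of 19 other settings, both on RPKM scales. Gkn2, named after its value was seen, was called higher at 1.28 ± 0.224 CPM with antibody and 0.598 ± 0.224 CPM without (edgeR adjusted p = 0.0342). It kept this call in 3 of the 8 fits without 1 library, with an adjusted p of 0.0797 without antibody replicate 1, 0.115 without antibody replicate 2, 0.0705 without antibody replicate 4, 0.107 and 0.0541 without replicate 3 or 4 of the other arm. Leaving out replicates 1 and 4 of that arm together gave 0.0588. Thinning all libraries to the smallest total gave 0.066 (edgeR). Gkn2 could be tested in 17 other settings and was called in 10 of them. Without antibody it had 8, 8, 3 and 10 counts.

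Ion transport, sulfation and transcription were represented too. Slc26a9, a chloride channel of gastric surface cells, averaged 14.4 ± 1.98 CPM in antibody libraries and 8.59 ± 1.46 CPM in the others (SD, n = 4 each; log2 fold change 0.74 ± 0.12 SE, edgeR adjusted p = 0.000323). Sult1c2, a cytosolic sulfotransferase, rose by 0.42 ± 0.07 SE (edgeR adjusted p = 0.000323). Foxq1, a forkhead factor that mouse surface mucous cells need to make Muc5ac, rose by 0.38 ± 0.07 SE to 36.2 ± 1.51 CPM, against 27.9 ± 1.803 CPM without antibody (edgeR adjusted p = 0.000499). A gene of the opposite strand, A530084C06Rik, overlaps Foxq1 with 30 to 45 counts per library.

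Fut2, which adds fucose to mucosal glycans, was scarce. It averaged 2.16 ± 0.279 CPM with antibody against 0.592 ± 0.207 CPM in the other arm, a rise of 1.83 ± 0.28 SE in log2 units. This rise had been seen before the list was made, so no p is given for Fut2. Tff2, a trefoil peptide of mucous neck cells, was higher as well (log2 fold change 2.12 ± 0.41 SE). It had 0.772 to 1.40 CPM with antibody and 0.187 to 0.312 CPM without. Tff2 passed the filter on low counts only through the antibody libraries, so no p is given for it. It could be tested in 16 of the 19 other settings. In the libraries without antibody Tff2 was at or near the level of 3 counts, so its fitted fold change depends on the prior count. Car12, a carbonic anhydrase named after its value was seen, was the gene that fell (-0.33 ± 0.08 SE, edgeR adjusted p = 0.0123), a call lost without antibody replicate 2 (edgeR adjusted p = 0.0528) or 3 (edgeR adjusted p = 0.0678). Among the 10 genes that did not pass, Muc1, a membrane mucin, had a log2 fold change of 0.11 ± 0.06 SE (edgeR adjusted p = 0.272) and Dpcr1, a mucin-like gene, one of 0.43 ± 0.20 SE (edgeR adjusted p = 0.22).

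**Figure D3:**
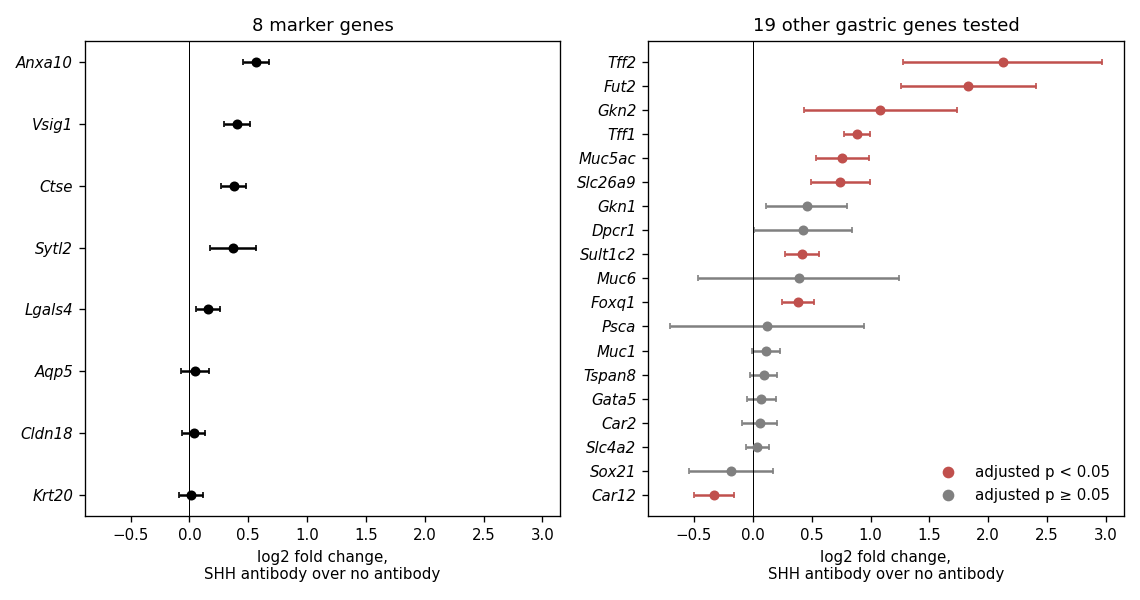
Log2 fold change, SHH antibody over no antibody, with 95% intervals from the edgeR fit over 8 libraries, for the 8 marker genes (left, black, picked on this difference) and the 19 other gastric genes tested (right, red where adjusted p was under 0.05). Anxa10 leads the marker genes at 0.57, and Tff2, Fut2 and Gkn2 have the highest values at the right, with wide intervals. Tff2 passed the filter on low counts only through the antibody libraries. The rise of Tff1 and of Fut2 was known before the list was made.

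The label of a gastric surface program was checked against these cells. Without antibody, Tspan8 stood at 407.4 ± 35.6 RPKM, Muc1 at 155.8 ± 15.1 RPKM, Tff1 at 107.8 ± 3.84 RPKM and Gata5 at 20.1 ± 2.07 RPKM. Muc5ac (1.63 ± 0.238 RPKM), Gkn1 (2.31 ± 0.207 RPKM) and Gkn2 (0.766 ± 0.286 RPKM) were lower, while Capn8, Bpifb1 and A4gnt had 0 counts in every library. Intestinal genes were present beside them, with Cdh17, an intestinal cadherin, at 94.3 ± 1.89 RPKM with antibody and 97.4 ± 9.43 RPKM without, and Cdx2, the factor of intestinal identity, at 16.2 ± 0.413 RPKM and, without antibody, 14.9 ± 1.77 RPKM. Of the 27 intestinal genes 7 were tested. Cdx1, Car1, Car4, Apoa4, Zg16 and Slc26a3 had 0 counts in every library, and Alpi, Lct, Sis and Fabp1 averaged at most 0.0818 CPM with antibody and 0.134 CPM without. Some genes of both lists were thus present, and other genes of both were low or at 0.

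The 7 intestinal genes tested had a median log2 fold change of 0.27, where that of all genes tested was -0.0044. Of these 7 genes 2 rose, where 4.53% of all genes were called higher. They were Vil1, which encodes villin of the brush border (0.27 ± 0.05 SE, edgeR adjusted p = 0.000754), and Tff3, the trefoil peptide of goblet cells (0.80 ± 0.20 SE, edgeR adjusted p = 0.0122). Tff3 lost its call without replicate 4 of the arm without antibody (edgeR adjusted p = 0.055), and Usp37 overlaps Vil1 on the opposite strand with 541 to 869 counts. Spink4 (0.63 ± 0.27 SE, edgeR adjusted p = 0.17) and Fabp2 (0.47 ± 0.23 SE, edgeR adjusted p = 0.248) did not pass. Cdh17 lay at -0.06 ± 0.06 SE (edgeR adjusted p = 0.629). Spink4 was called higher in 2 of 19 other settings, both on RPKM scales. Of 3 squamous genes tested, Krt13, a keratin of stratified epithelium, rose (0.94 ± 0.19 SE, edgeR adjusted p = 0.00222) to 4.61 ± 0.536 CPM, against 2.41 ± 0.781 CPM without antibody.

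The summed markers of other cells overlapped between the arms. The summed level of 9 leukocyte genes was 4.87 to 6.50 CPM with antibody and 4.79 to 6.28 CPM without, and that of 9 acinar genes 2.89 to 3.75 CPM and, without antibody, 2.65 to 4.71 CPM. Parietal cell genes summed to 8.46 to 9.91 CPM with antibody and 7.81 to 10.4 CPM without. Of the proton pump subunit genes, Atp4b had 0 counts in every library. Atp4a averaged 2.91 ± 0.541 CPM with antibody and 2.92 ± 0.195 CPM without. The 8 chief and neck cell genes summed to 1.54 to 2.86 CPM and, without antibody, 0.857 to 1.70 CPM. The 22 stellate cell and fibroblast genes summed to 1470 to 1568 CPM with antibody and 1485 to 1629 CPM without, of which Vim, also expressed by many cancer cell lines, took 1097 ± 29.2 CPM and, without antibody, 1056 ± 73.5 CPM. Of 13 tested in this list 2 fell, where 3.87% of all genes were called lower. They were Fbln2 (-0.42 ± 0.05 SE, edgeR adjusted p = 8.5e-06) and Pdgfra (-0.84 ± 0.17 SE, edgeR adjusted p = 0.00271). The collagen genes Col3a1 (0.66 ± 0.28 SE, edgeR adjusted p = 0.156) and Col1a1 (0.36 ± 0.15 SE, edgeR adjusted p = 0.169) had the opposite sign and did not pass, but each was called higher in 4 of 19 other settings. Without replicate 1 of the arm without antibody their log2 fold changes were 0.93 and 0.53, and without replicates 1 and 4 of it 1.28 and 0.55. From the same list, Dcn, Lum and Tcf21 had 0 counts in every library. Leukocyte genes at 0 everywhere were 4 of 9, and acinar genes 5 of 9, Ptf1a among them. The part of these levels in the values of the 8 genes was not tested.

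Relatives of the 8 genes were taken by protein family. Of 85 relatives 84 were listed in the count table and 53 were tested. Of these 53, 9 rose, 3 fell and 41 did not pass, with a median log2 fold change of 0.07, where 8.4% of all genes were called. Without replicates 1 and 4 of the arm without antibody 10 rose and 6 fell, with 2263 of 13914 genes called in all, and without antibody replicate 3 the relatives called were 7, with 695 of 13748 in all. The difference between each marker gene and its relatives was not tested.

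**Figure D4:**
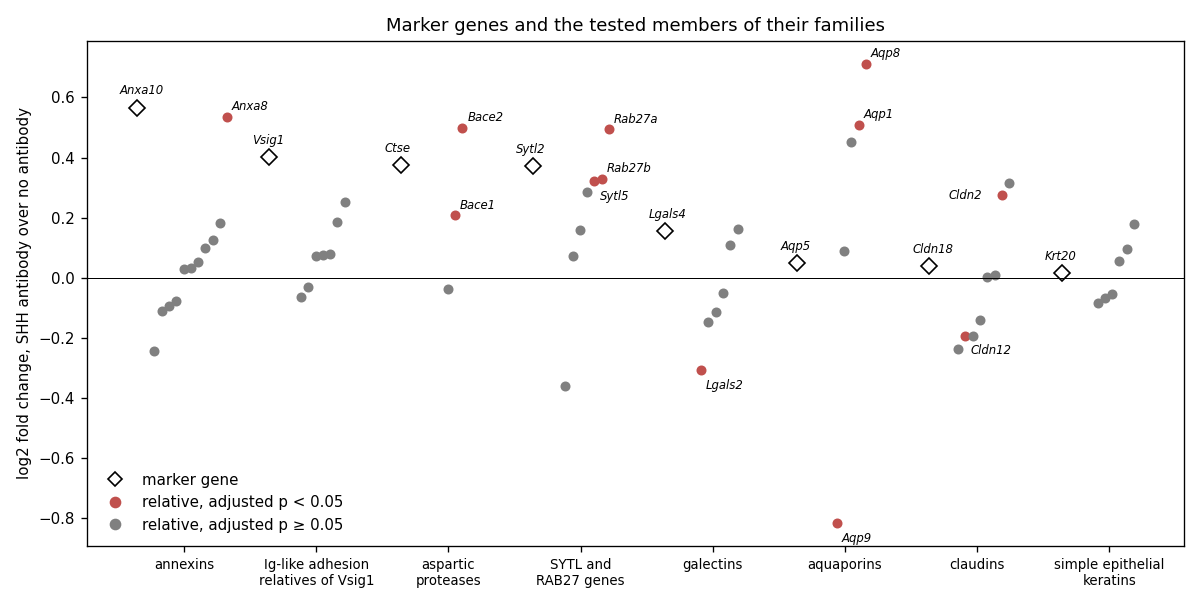
Log2 fold change, SHH antibody over no antibody, of each marker gene (open diamond) and of the tested members of its family (points, red where adjusted p was under 0.05). Anxa8 lies beside Anxa10 at 0.54, and the RAB27 genes beside Sytl2, while the simple epithelial keratins and the relatives of Vsig1 hold no red point.

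Of 7 tested partners and relatives of Sytl2 in granule transport 3 rose, where 4.53% of all genes were called higher. They were Rab27b (0.33 ± 0.06 SE, edgeR adjusted p = 0.001), Rab27a (0.49 ± 0.12 SE, edgeR adjusted p = 0.0112) and Sytl5, another synaptotagmin-like gene (0.32 ± 0.08 SE, edgeR adjusted p = 0.0172). Rab27b stood at 39.2, 41.0, 39.7 and 41.3 CPM with antibody and at 31.4, 32.7, 29.9 and 34.2 CPM without. Rab27a stood at 11.5, 10.8, 12.9 and 11.4 CPM with antibody and at 7.09, 6.91, 10.6 and 8.49 CPM without, the arms of both genes standing apart. Rab27a lost its call without antibody replicate 3 (edgeR adjusted p = 0.0528), and Sytl5 without antibody replicate 3 (edgeR adjusted p = 0.0972) or 4 (edgeR adjusted p = 0.0526) and without replicates 1 and 4 in the other arm (edgeR adjusted p = 0.0516). Exph5 and Mlph, which encode further RAB27 effectors, had log2 fold changes of 0.28 ± 0.10 SE (edgeR adjusted p = 0.0935) and 0.16 ± 0.06 SE (edgeR adjusted p = 0.117). They were called higher in 1 and 2 of 19 other settings.

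Of 11 annexins tested 1 was called, Anxa8, a share near the 8.4% of all genes. It stood at 91.7, 86.7, 93.0 and 82.2 CPM with antibody and at 53.9, 64.6, 62.8 and 63.1 CPM without, a log2 fold change of 0.54 ± 0.06 SE (edgeR adjusted p = 3.55e-06). A630023A22Rik overlaps it on the opposite strand with 4 to 13 counts. Anxa1, whose protein dampens inflammation, had a log2 fold change of 0.13 ± 0.04 SE (edgeR adjusted p = 0.072). Its arms did not overlap (417.6 to 428.8 CPM with antibody, 374.1 to 393.2 CPM without). It was called higher in 3 of 19 other settings. These were DESeq2 (adjusted p = 0.0102) and the fits without replicate 1 of the arm without antibody (edgeR adjusted p = 0.0288) or without replicates 1 and 4 of it (edgeR adjusted p = 0.00466).

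Of 3 aspartic proteases tested, the beta-secretase genes Bace2 (0.50 ± 0.07 SE, edgeR adjusted p = 0.000124) and Bace1 (0.21 ± 0.05 SE, edgeR adjusted p = 0.00662) rose. Among all genes tested, 4.53% were called higher. Bace1 lost its call without antibody replicate 3 (edgeR adjusted p = 0.0502), and Gm16536 and Rnf214 overlap it on the opposite strand. Ctsd, the cathepsin of lysosomes, had a log2 fold change of -0.04 ± 0.05 SE (edgeR adjusted p = 0.728). Chief cell pepsinogen genes were near 0, with Pgc at 0.211 ± 0.097 CPM with antibody and 0.0616 ± 0.043 CPM without.

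Claudins, galectins and aquaporins held calls in both directions or a fall, where 4.53% of all genes were called higher and 3.87% lower. Cldn2, a pore-forming claudin, rose by 0.27 ± 0.05 SE to 181.5 ± 3.93 CPM, against 150.2 ± 6.06 CPM without antibody (edgeR adjusted p = 0.000439). Cldn12 fell by a log2 change of -0.19 ± 0.05 SE (edgeR adjusted p = 0.0248), and this call was lost without antibody replicate 1 (edgeR adjusted p = 0.056), 2 (edgeR adjusted p = 0.123) or 3 (edgeR adjusted p = 0.0813), and without replicate 4 in the other arm (edgeR adjusted p = 0.0654). Without replicates 1 and 4 of that arm its log2 fold change was -0.11 (edgeR adjusted p = 0.094). Cldn6, also among the 8 claudins tested, had a log2 fold change of -0.14 ± 0.05 SE and did not pass (edgeR adjusted p = 0.0617). Its arms did not overlap (282.9 to 306.9 CPM with antibody, 315.0 to 339.9 CPM without). Cldn6 was called lower in 4 of 19 other settings, DESeq2 (adjusted p = 0.0223) among them. Of 6 galectins Lgals2 fell (-0.31 ± 0.06 SE, edgeR adjusted p = 0.00112), with 93.0 to 101.0 CPM with antibody and 106.7 to 131.8 CPM without. Cdc42ep1 overlaps Lgals2 on the opposite strand with 1054 to 1690 counts, and in the stretch they share only strand tells their reads apart. Lgals1, the most abundant galectin per length, had a log2 fold change of -0.15 ± 0.05 SE (edgeR adjusted p = 0.0584), opposite in sign to Lgals4, and was called lower in 6 of 19 other settings, DESeq2 (adjusted p = 0.00872) and voom (adjusted p = 0.0364) among them.

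Of 5 aquaporins besides Aqp5, the water channel genes Aqp1 (0.51 ± 0.09 SE, edgeR adjusted p = 0.000795) and Aqp8 (0.71 ± 0.18 SE, edgeR adjusted p = 0.0151) rose and Aqp9 fell (-0.82 ± 0.24 SE, edgeR adjusted p = 0.0363). The shares over all genes tested were 4.53% higher and 3.87% lower. Aqp8 lost its call without antibody replicate 1 (edgeR adjusted p = 0.0674), without replicate 4 in the other arm (edgeR adjusted p = 0.0715) and without replicates 1 and 4 in that arm (edgeR adjusted p = 0.0701). For Aqp9 the arms overlapped at 0.965 to 2.01 CPM with antibody and 1.87 to 3.21 CPM without, and the call held in 2 of the 8 fits without 1 library, with adjusted p up to 0.121 without antibody replicate 1. Aqp9 also lost it with DESeq2 (adjusted p = 0.063).

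Of the 6 simple epithelial keratins 0 passed in edgeR, where 8.4% of all genes tested did, and 1 had an unadjusted p under 0.05. Krt19, a duct keratin, was nearest, with 1460 ± 70.5 CPM with antibody and 1290 ± 110.6 CPM without (log2 fold change 0.18 ± 0.06 SE, edgeR adjusted p = 0.063), and it passed in 5 of 19 other settings, DESeq2 (adjusted p = 0.0358) and voom (adjusted p = 0.0361) among them. Krt8, a partner of Krt18 in filaments, had a log2 fold change of 0.10 ± 0.06 SE, and Krt23 one of -0.08 ± 0.04 SE with arms that did not overlap (161.0 to 163.2 CPM with antibody, 170.7 to 172.5 CPM without). Of the 7 tested adhesion relatives of Vsig1 0 passed in edgeR and 2 had an unadjusted p under 0.05. Jam2, a junction protein, had the smallest p among them (0.25 ± 0.09 SE, edgeR adjusted p = 0.0991; DESeq2 0.144, voom 0.079). It was called higher in 3 of 19 other settings, with no filter on low counts (edgeR adjusted p = 0.0464), without replicate 1 of the arm without antibody (edgeR adjusted p = 0.00867) and without replicates 1 and 4 of it (edgeR adjusted p = 0.03).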

How the data were processed

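PolyA RNA of 8 libraries was made into stranded libraries and read in pairs, per the labels. The submitters' processing notes name CASAVA 1.8.2, TopHat2 2.0.9 and GRCm38; how reads were counted, on which annotation and strand setting, is not given in the sources used here. Deposited by the authors were raw counts per Ensembl gene, and RPKM values that divide those counts by gene length and column total, per the file headers and values.

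The counts went into edgeR 4.0.16, run in R 4.3.3 (filterByExpr, TMM, quasi-likelihood F test, arm as the only term, Benjamini-Hochberg adjustment at 0.05 over 13626 genes). Fold changes are antibody over none, with standard errors from the F statistic. The procedure was tested on simulated counts. Alternatives were RLE and upper quartile scaling, other filters, the replicate number as a block, DESeq2 1.42.0, voom (limma 3.58.1), log2(RPKM + 1), log2(RPKM + 0.1), thinning to 10009711 counts and leaving out each library. Leaving out both replicates 1 and 4 without antibody was added after seeing the data, and it keeps the most alike pair of that arm.

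The 8 genes and all lists were chosen with earlier results of these data known. By rule the text names the 8 genes, up to 6 called and 3 further tested genes with the smallest p of each list, and the 5 most alike; of these, those that bear on the 8 genes are given. Part of the labelled genotype is not reported here.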

Additional observations from a re-analysis of the deposited data

Results flagged for a closer look

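Sytl2 in replicate 1 without antibody stood apart from its arm, at 13.17 CPM where the other 3 libraries had 10.3 to 10.8 CPM. The gap to the nearest library was 0.848 of the range of the arm, above the critical value of 0.829 for 4 samples (Dixon). It was the 1 case in 16 sets of 4 libraries examined, and chance alone marks about 1 in 20 groups. The same library differs most from its arm over all genes.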

How the results depend on the processing

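With log2(RPKM + 0.1) 670 genes were called (380 higher, 290 lower) and with log2(RPKM + 1) 675 (386 higher, 289 lower), where the reported fit called 1144 (617 higher, 527 lower). In both, 1 relative of the marker genes was lower, against 3, and 0 other gastric genes were lower, against 1. Without both replicates 1 and 4 of the arm without antibody 2263 genes were called, 1121 higher and 1142 lower, and 6 relatives were lower. Over the 8 fits without 1 library, 679 to 1485 genes were called (369 to 756 higher, 305 to 729 lower), with 679 without antibody replicate 2 and 695 without antibody replicate 3. Relatives called ranged from 7 to 15 (6 to 12 higher, 1 to 4 lower) and other gastric genes from 7 to 10 (7 to 9 higher, 0 to 1 lower). Car12, Cldn12, Rab27a and Aqp9 lost their calls on both RPKM scales. The cause was not tested. With the replicate number as a block 1005 genes were called. Same-numbered libraries did not deviate together (correlations -0.029 to 0.007, none highest with its own number). No pairing by number was seen, but 4 libraries per arm are too few to exclude one. The block changed no count of relatives or gastric genes.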

Other observations

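The libraries without antibody varied more among themselves. All 8 marker genes had a larger coefficient of variation without antibody, from 4.21% for Lgals4 to 12.1% for Sytl2, while with antibody it was 0.774% for Cldn18 to 5.32% for Vsig1. The same held for 78.1% of the 9298 tested genes at or above the mean level of Sytl2, with a median of 3.97% with antibody and 6.72% without. The deeper sequencing of the antibody libraries moves with this difference. Replicate 1 without antibody also stood apart from its arm (chi-square per degree of freedom 9.26 to 11.2). The part of either was not tested.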
